A study of Mus musculus with 2 samples.

Results

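The haem synthesis and erythroid membrane genes are a set of 29 genes grouped by function: the enzymes and mitochondrial carriers of haem synthesis, the receptors for erythropoietin and transferrin, red cell membrane and membrane skeleton proteins, the transcription factors that drive them and 3 cytosolic red cell proteins. The rule lists the genes by name and sets no threshold on a measured value, and the list was drawn up with earlier results of these data known. Of the 29 genes, 28 had a row among the 22401 features of the count matrices, and Ahsp was not analysed here. The members were described in globin-rich cells, defined as cells with at least 50% of their unique molecular identifiers (UMIs, 1 per captured transcript) from haemoglobin genes. There were 2729 such cells among 9841 control cells passing the filters and 5090 among 12141 cells of the mutant, which is 27.7% (95% exact binomial interval 26.8% to 28.6%) and 41.9% (41.0% to 42.8%).

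The study profiled whole mouse hearts at E11.5 (mid-gestation) by droplet single-cell RNA sequencing, with 1 library per genotype. Control embryos were Hand2fx/+ R26RmTmG/wt and carried no Cre. Embryos of the second group, H2CKO, were Nfatc1Cre/wt Hand2fx/fx R26RmTmG/wt, so that both groups carried at least 1 floxed Hand2 allele and 1 copy of a reporter that switches from Tomato to GFP where Cre has acted. Nfatc1Cre acts in the endocardium, the inner lining of the heart, and the labels do not say how many embryos, or of which sex, went into a library. With 1 library per genotype, every difference below is between these libraries, has no replicate check and carries no p-value, and intervals cover counting error only.

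Haem is built in steps that begin and end in the mitochondrion. Alas2 joins glycine and succinyl-CoA in erythroid cells, Alad, Uros, Urod and Cpox carry the intermediates onward, Ppox makes protoporphyrin and Fech inserts iron. Iron reaches the cell on transferrin through the receptor Tfrc and enters the mitochondrion through mitoferrin (Slc25a37). At this stage of mouse development most circulating red cells are primitive erythroid cells from the yolk sac, which carry nuclei, still divide and mature in the bloodstream.

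Hand2 served as the check of the labels. In endothelial-like cells it was measured at 223 CPM (counts per 1000000 UMIs) from 1559 UMIs in the control and at 13.6 CPM from 130 UMIs in H2CKO, and GFP was at 16.6 and 1235 CPM. In globin-rich cells Hand2 was at 8.53 and 5.43 CPM and GFP at 1.52 and 19.3 CPM. The globin-rich cells had the red cell identity that their rule implies: 11 of 12 erythroid markers that are neither members nor haemoglobins exceeded 20 CPM in both libraries, led by Car2 (carbonic anhydrase 2) at 4348 and 5013 CPM. Cardiomyocyte markers were the other list with a high level there. Their 12 genes summed to 3007 CPM in the control and 3274 CPM in H2CKO, 11 and 10 of them exceeded 20 CPM, and none was at 0. Markers of endothelial cells summed to 25.8 and 28.2 CPM, of mesenchymal cells to 141 and 65.8 CPM, of epicardial cells to at most 22.6 CPM and of white blood cells to 3.59 and 7.74 CPM. The globin-rich cells of the control were deeper, with a median of 18503 UMIs and 1826 genes per cell against 13289 UMIs and 1245 genes in H2CKO. Haemoglobin took a median of 66.3% and 68.9% of their UMIs, so CPM is computed over the UMIs outside the 10 haemoglobin features, of which there were 17818752 and 22095901. The libraries shared 57 cell barcodes, 3 of them among globin-rich cells of both.

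Iron-responsive elements are short RNA hairpins that bind iron regulatory proteins: in a 5′ UTR they hold back translation, and in the 3′ UTR of Tfrc they protect the transcript when iron is low. They are shown because they mark Alas2 and Tfrc, the only members in which a search of annotated UTRs found the pattern, and because Tfrc differed most between the libraries. The search asked for a 17-base hairpin with a C bulge at the first base, 5 paired bases (G-T pairs allowed) and a loop starting CAGTG. It matched the 5′ UTR of 23 of 21877 coding genes (0.105%) and the 3′ UTR of 100 (0.457%). The 6 loop bases are in capitals, all sequences read 5′ to 3′ on the strand of the gene, and coordinates are on GRCm38.
Alas2, 5′ UTR, exon 1, chrX:150547464-150547480, plus strand: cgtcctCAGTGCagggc
Tfrc, 3′ UTR, exon 19, chr16:32631225-32631241, plus strand: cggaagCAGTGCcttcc
Tfrc, 3′ UTR, exon 19, chr16:32631604-32631620, plus strand: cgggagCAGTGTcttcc
Tfrc, 3′ UTR, exon 19, chr16:32631669-32631685, plus strand: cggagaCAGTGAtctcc
Tfrc, 3′ UTR, exon 19, chr16:32631716-32631732, plus strand: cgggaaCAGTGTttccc
Fth1, 5′ UTR, exon 2, chr19:9982738-9982754, plus strand: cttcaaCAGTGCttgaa
Ftl1, 5′ UTR, exon 1, chr7:45459785-45459801, minus strand: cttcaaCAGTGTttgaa
Slc40a1, 5′ UTR, exon 1, chr1:45925471-45925487, minus strand: cagctaCAGTGTtagct
The 4 Tfrc hairpins lie within 1 exon and, by the search itself, share the first 5 loop bases with Alas2 and with the ferritin chains Fth1 and Ftl1 and the iron exporter Slc40a1, which are not members and are printed for comparison.

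All 28 measured members were detected in globin-rich cells of both libraries, at 96.0 to 2632 CPM in the control and 70.4 to 3404 CPM in H2CKO. These libraries count UMIs at the 3′ end of transcripts, so levels were not divided by length, but the ratio between the libraries moved with gene span, so an order of levels can differ between them. Blvrb, a cytosolic flavin reductase, was the most abundant member in both libraries (2632 CPM in the control and 3404 CPM in H2CKO), and the least abundant was the glycine carrier Slc25a38 in the control (96.0 CPM) and the membrane skeleton anchor Ank1 in H2CKO (70.4 CPM).

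**Figure D1:**
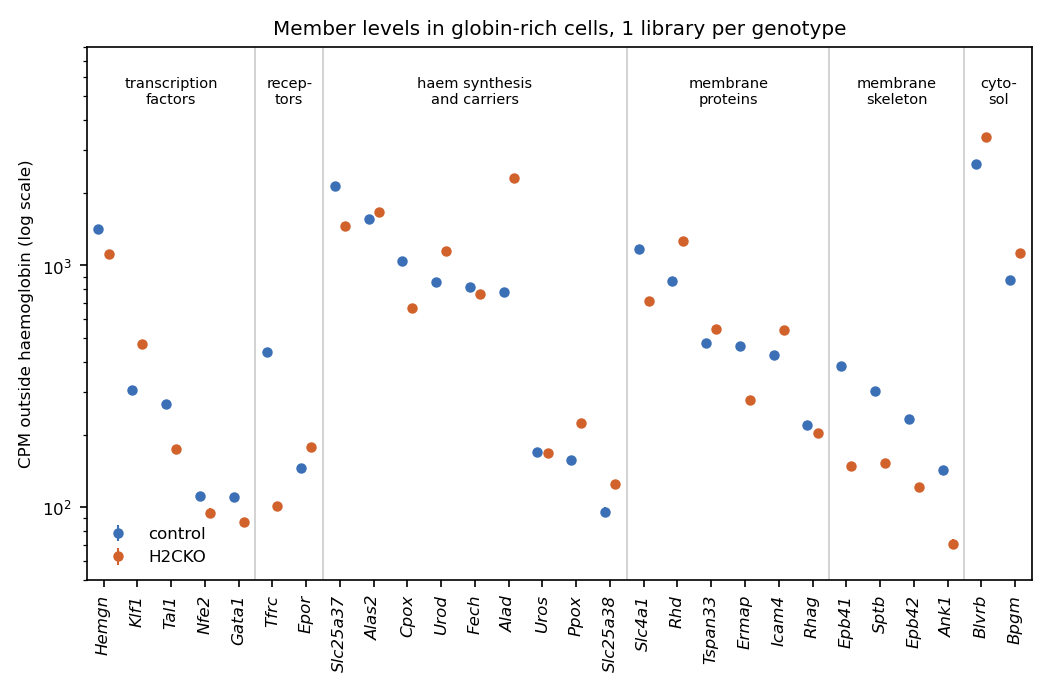
Level of each of 28 members in globin-rich cells, in CPM outside haemoglobin on a log scale, grouped by role, with 1 point per library (control blue, H2CKO orange) and exact 95% Poisson intervals that are mostly smaller than the points. Tfrc and the 4 membrane skeleton genes sit lower in H2CKO, and Alad sits higher.

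Between the libraries, Alad was the member that was at least 2-fold higher in H2CKO, and Tfrc and Epb41 were the members at least 2-fold lower, Epb41 falling short (−0.86) once a trend with gene span was taken out. The other 25 lay within 2-fold. Fold changes are ratios of CPM + 5 on the log2 scale, for genes with at least 20 CPM and 20 UMIs in the higher library. Over all 4303 genes passing that filter, 0.465% were at least 2-fold higher in H2CKO and 8.67% at least 2-fold lower, which sets 1 of 28 and 2 of 28 members beside backgrounds of 20 and 373 genes. The median of the members was −0.10 and that of all genes tested −0.21. Measured from the median gene, 30 genes were higher and 153 lower, with Alad, Tfrc and Epb41 still the members past 2-fold.

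Among the enzymes and carriers of haem synthesis, Alad stood furthest from the rest. It encodes the enzyme that joins pairs of aminolevulinic acid molecules into porphobilinogen. Alad was at 779 CPM in the control (13873 UMIs) and at 2296 CPM in H2CKO (50728 UMIs), a ratio of 2.95 (95% interval 2.89 to 3.00) and a log2 ratio of 1.55. Only 0.116% of the genes tested had a higher ratio. In H2CKO Alad was the most abundant member after Blvrb, whereas in the control it lay below Alas2, Cpox, Urod and Fech among the enzymes of its pathway.

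The other enzymes differed less. Alas2, which sets the rate of erythroid haem synthesis, was at 1559 CPM in the control and 1671 CPM in H2CKO (log2 ratio 0.10). Urod, which trims uroporphyrinogen, was at 858 and 1147 CPM (0.42), and Ppox was at 157 and 222 CPM (0.49). Cpox, the coproporphyrinogen oxidase between them, went the other way, at 1043 and 668 CPM (−0.64). Uros was at 170 and 168 CPM (−0.02) and Fech at 818 and 759 CPM (−0.11). Successive enzymes of the pathway thus differed in sign between the libraries, with Alad, Urod and Ppox higher and Cpox lower in H2CKO. The mitochondrial iron carrier Slc25a37 was at 2126 and 1457 CPM (−0.54), and Slc25a38, which supplies glycine, at 96.0 and 125 CPM (0.37).

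Tfrc, the transferrin receptor, had the lowest ratio of any member. It was at 438 CPM in the control (7803 UMIs) and 101 CPM in H2CKO (2228 UMIs), 4.34-fold lower (4.14 to 4.55), a log2 ratio of −2.07. Of the 4303 genes tested, 0.186% had that ratio or a lower one. Epor, the erythropoietin receptor, was at 145 and 178 CPM (0.28), so the 2 receptors differed in sign. The sign of the Epor ratio was not stable, turning to −0.003 with the gene-span trend taken out.

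The 4 genes of the membrane skeleton and its anchors were all lower in H2CKO, Epb41 by the most and the other 3 by amounts close to each other. Epb41 (protein 4.1, which joins spectrin to actin) was at 386 and 148 CPM, 2.61-fold lower (2.50 to 2.72) and −1.35 on the log2 scale. Sptb (beta spectrin) was at 303 and 152 CPM (−0.97), Ank1 (ankyrin, which ties spectrin to the anion exchanger) at 143 and 70.4 CPM (−0.97), and Epb42 (protein 4.2) at 233 and 121 CPM (−0.92). Their median of −0.97 compares with −0.21 for all genes tested. Ratios like those of Sptb, Ank1 and Epb42 were common among all genes, with 9.69%, 9.64% and 11.8% of the genes tested at that ratio or lower.

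Proteins that cross or coat the membrane were divided. The anion exchanger Slc4a1 (band 3) was at 1173 and 716 CPM (−0.71) and the blood group protein Ermap at 464 and 277 CPM (−0.73). Rhd, the Rhesus protein, was at 865 and 1256 CPM (0.54), the adhesion molecule Icam4 at 425 and 540 CPM (0.34) and the tetraspanin Tspan33 at 479 and 546 CPM (0.19). Rhag, the partner of Rhd in the membrane complex, was at 219 and 204 CPM (−0.10). The sign of the Rhag ratio was not stable, turning to 0.11 when ratios were centred on the median gene.

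Transcription factors spanned −0.61 to 0.62. Tal1 was at 268 and 174 CPM (−0.61), Hemgn at 1416 and 1120 CPM (−0.34), Gata1 at 110 and 86.6 CPM (−0.33) and Nfe2 at 111 and 95.04 CPM (−0.22). Klf1, which activates globin and membrane genes, was the member of this role with a higher level in H2CKO, at 307 and 474 CPM (0.62), and 1.53% of the genes tested had a higher ratio. Of the cytosolic proteins, Bpgm, which makes the oxygen affinity regulator 2,3-bisphosphoglycerate, was at 874 and 1128 CPM (0.37), and Blvrb had the same ratio of 0.37.

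In all, 12 members were higher and 16 lower in H2CKO. Most of the genes tested were lower too: 65.3% of them were at or below the ratio of Uros (−0.02), and 15 of 28 members were above the median gene. Counting error alone left 27 of 28 ratios with an interval that did not include 1, and that share was not computed over all genes. The direction of Alas2, Uros, Fech, Rhag and Epor changed under at least 1 alternative setting of the processing, and for the other 23 members it was the same under all 17. Some of the 23 came near 0. Nfe2 was at −0.007 when centred on the median gene, Bpgm at 0.03 at a haemoglobin share of at least 70%, and Tspan33 at 0.07 on CPM over all UMIs.

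Since the control cells held more genes, the ratios were taken again between cells with like numbers of detected genes. Bins started at 500, 1000, 1500 and 2000 genes, the last ending below 3000, and in that order Alad had log2 ratios of 1.73, 1.57, 1.62 and 1.56 and Tfrc had −2.11, −2.18, −1.81 and −1.86. Epb41 had −1.38, −1.77, −1.42 and −1.23. All 3 stayed past 2-fold in every bin. In the order of the bins, 5, 5, 2 and 2 members were at least 2-fold lower against backgrounds of 7.15%, 8.90%, 6.60% and 4.92% of all genes, and 1 member was higher in each against 3.67%, 2.46%, 0.749% and 1.16%. The sign of the ratio was the same in all 4 bins for 21 of 28 members, 8 higher and 13 lower in H2CKO. The median of all genes tested was 0.11, −0.13, −0.13 and −0.11 in the order of the bins.

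The ratio between the libraries moved with the length of the gene. Across the 4303 genes tested in globin-rich cells, the ratio fell with gene span (Spearman's rho −0.54), and across the 28 members the rho was −0.53. These are descriptions across genes of the same pair of libraries, and genes are not independent replicates. Ank1, Epb41 and Sptb are the longest members, spanning 176, 152 and 130 kb. With the trend of ratio on span taken out, Epb41 was at −0.86 and no longer past 2-fold, and Sptb and Ank1 were at −0.48. Tfrc spans 23.9 kb and Alad 10.8 kb, and both remained past 2-fold, Alad at 1.39. The part that gene span plays in the lower skeleton genes was not tested.

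**Figure D2:**
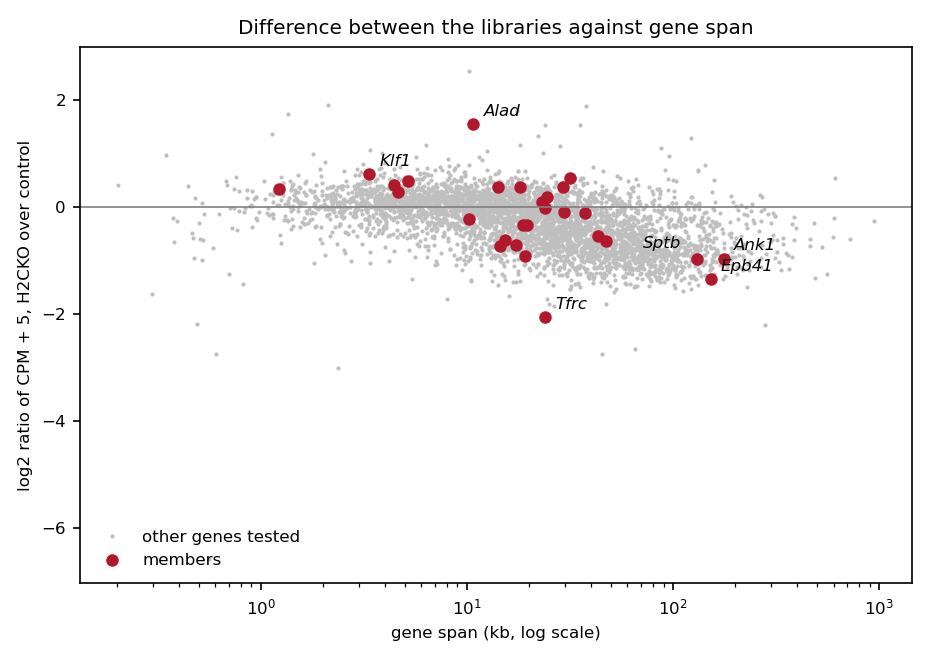
Log2 ratio of CPM + 5 in H2CKO over control in globin-rich cells against gene span in kb (log scale), with 1 point for each of 4303 genes tested and the 28 members in red. Epb41, Sptb and Ank1 lie with the other long genes at negative ratios, whereas Tfrc and Alad lie apart from genes of their own span.

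Alad was also higher in H2CKO in each of the 5 named classes of other cells. Its level in the control and in H2CKO was 27.6 and 63.9 CPM in cardiomyocyte-like cells (2.31-fold, 2.19 to 2.44) and 45.5 and 134 CPM in endothelial-like cells (2.94-fold, 2.60 to 3.34). It was 68.3 and 142 CPM in epicardial-like cells (2.08-fold, 1.94 to 2.22) and 43.2 and 102 CPM in mesenchymal-like cells (2.36-fold, 2.16 to 2.58). In white blood cell-like cells, 72 and 91 in number, it was 37.9 and 181 CPM (4.77-fold, 3.54 to 6.53). The backgrounds of genes at least 2-fold higher in these 5 classes, in that order, were 0.194%, 0.772%, 0.949%, 0.243% and 0.885%. Of the 8 members with enough UMIs to be compared in all 5 classes, Alad was the only one at least 2-fold higher in each, with epicardial-like cells at the limit (log2 ratio 1.00). Other members were at least 2-fold higher in 1 class each, namely Klf1 (1.30), Ppox (1.33), Rhd (1.24), Icam4 (1.26) and Blvrb (1.06). Haemoglobin UMIs, a measure of red cell RNA in these classes, moved with the result for Alad: they were 2.97% and 4.89% of all UMIs in endothelial-like cells and 0.913% and 1.72% in epicardial-like cells. Scaled from the haemoglobin UMIs at the ratio of globin-rich cells, the UMIs expected with red cell RNA came to 27.0% and 40.1% of the Alad UMIs in endothelial-like cells, and to 5.43% and 12.9% in epicardial-like cells. With those UMIs taken out, Alad was 2.26-fold higher in cardiomyocyte-like, 2.41-fold in endothelial-like, 1.91-fold in epicardial-like, 2.30-fold in mesenchymal-like and 5.01-fold in white blood cell-like cells, so epicardial-like cells fell short of 2-fold.

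Epb41 was lower in H2CKO in the same 5 classes, and Tfrc in the 4 in which it passed the filter, though in white blood cell-like cells the Tfrc fold of 0.844 had a counting interval of 0.579 to 1.23. The trend with gene span was not taken out in these classes. Tfrc was at 91.2 and 33.6 CPM in cardiomyocyte-like cells (−1.32 on the log2 scale, where 0.901% of all genes were at least 2-fold lower), and its ratio was −0.92 in epicardial-like, −0.86 in mesenchymal-like and −0.22 in white blood cell-like cells. In endothelial-like cells it was below the filter, at 19.8 and 9.33 CPM. Epb41 ranged from −0.70 in cardiomyocyte-like to −1.43 in white blood cell-like cells and was at least 2-fold lower in mesenchymal-like cells too (−1.06). The share of all genes at least 2-fold lower was 5.38% in white blood cell-like, 2.23% in mesenchymal-like, 6.43% in endothelial-like and 3.13% in epicardial-like cells. Urod, at 0.47 to 0.60, was likewise on 1 side of 0 in all 5 classes, as were Cpox at −0.53 to −0.06, Bpgm at 0.07 to 0.41 and Blvrb at 0.01 to 1.06.

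**Figure D3:**
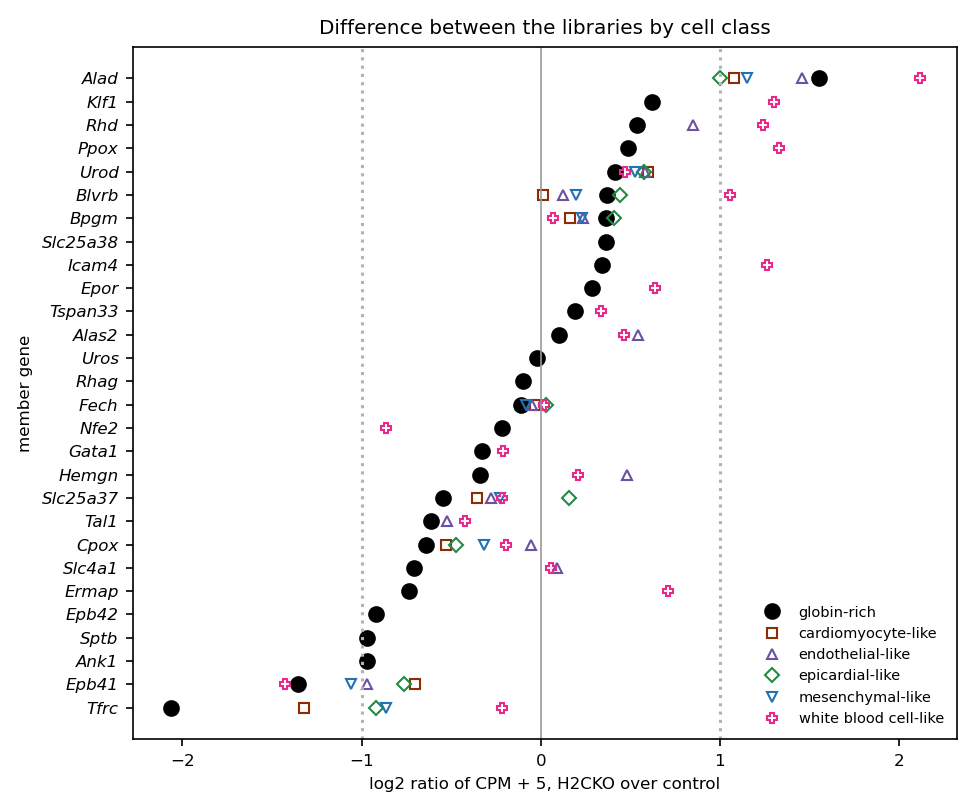
Log2 ratio of CPM + 5 in H2CKO over control for each member (ordered by its value in globin-rich cells, filled circles), in globin-rich cells and, with open symbols, in the 5 named classes of other cells in which it passed the filter on low values, with dotted lines at 2-fold. Alad is at or beyond 2-fold higher in all 6, and Tfrc and Epb41 lie below 0 in every class plotted.

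Within each library, the number of genes detected per cell served as an axis along which to describe the red cells, since maturing red cells lose transcripts. The 25% of globin-rich cells with the fewest genes (at most 1447 in the control and 965 in H2CKO) was set against the 25% with the most (at least 2146 and 1489.75). Bpgm was the only member at least 2-fold apart, higher in the cells with few genes in both libraries, and no member was at least 2-fold lower, though Hemgn was in both libraries, and Icam4 in H2CKO, at a haemoglobin share of at least 70%. Over all genes tested, 0.916% were higher and 5.54% lower in the control, and 0.613% higher and 8.30% lower in H2CKO. The median of the members was 0.16 in the control and −0.16 in H2CKO, against −0.16 and −0.22 for all genes tested. The sign of the members' median was not stable: in the control it turned to −0.13 with genes counted at 2000 UMIs, −0.12 on CPM over all UMIs and −0.03 at a haemoglobin share of at least 70%, and in H2CKO to 0.21 at a share of at least 30% and 0.06 when centred on the median gene. The backgrounds moved too. Measured from the median gene, 75 genes were at least 2-fold higher and 197 lower in the control, and 94 and 199 in H2CKO. At a haemoglobin share of at least 70%, 688 of 3690 genes were at least 2-fold lower in the control and 476 of 3704 in H2CKO. The cells with the fewest genes were also shallower, with medians of 12770 against 26420 UMIs in the control and 9689 against 19066 UMIs in H2CKO, and the part of depth in these ratios was tested only by the alternatives at 2000 UMIs.

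Bpgm was at 1503 CPM in the cells with the fewest genes and 691 CPM in those with the most in the control (log2 ratio 1.12), and at 1899 and 927 CPM in H2CKO (1.03). From 500 genes upward through the 4 bins it measured 1671, 1444, 876 and 694 CPM in the control and 1863, 1035, 926 and 928 CPM in H2CKO. The decline was stepwise in the control, while in H2CKO most of it lay between the first bin and the next, which starts at 1000 genes. Bpgm fell short of 2-fold in both libraries when cells were split at the median number of genes, when genes were counted after thinning each cell to 2000 UMIs, and on CPM over all UMIs, and in H2CKO also among cells with at least 1000 genes.

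Nfe2, Slc25a37, Epb41 and Alas2 followed Bpgm, at less than 2-fold. Nfe2 was at 148 and 96.7 CPM in the fewest-gene and most-gene cells of the control (0.59) and at 129 and 86.7 CPM in H2CKO (0.54). Slc25a37 had ratios of 0.55 and 0.44, Alas2 of 0.51 and 0.40 and Epb41 of 0.43 and 0.52. Hemgn, a nuclear protein of red cell precursors, lay at the other end. It was at 934 and 1455 CPM in the control (−0.64) and 669 and 1147 CPM in H2CKO (−0.77), and at a haemoglobin share of at least 70% its ratios were −1.47 and −1.20. Other alternatives made the ratio of Hemgn smaller. It was −0.03 among H2CKO cells with at least 1000 genes, and −0.30 in the control with cells down to 30% haemoglobin included. Sptb (−0.56 and −0.42), Icam4 (−0.23 and −0.57) and Cpox (−0.19 and −0.60) were also lower in the cells with few genes. In the control and H2CKO alike 12 members were lower and 11 higher in these cells, and the other 5 differed in sign. Most of the genes tested were lower there: 63.8% were at or below Tspan33 (−0.02) in the control, and 67.2% at or below Slc25a38 (−0.03) in H2CKO. The sign was the same in both libraries and under all alternatives for 7 members, namely Bpgm, Nfe2, Slc25a37, Alas2 and Epb41 (higher) and Hemgn and Sptb (lower), whereas that of Icam4 and Cpox turned in the control with cells down to 30% haemoglobin included. A kept sign could still be near 0. With genes counted at 2000 UMIs, Epb41 was at 0.03 in the control and 0.01 in H2CKO, and Nfe2 at 0.08 in the control. On CPM over all UMIs, Alas2 was at 0.04 and Slc25a37 at 0.08 in H2CKO.

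**Figure D4:**
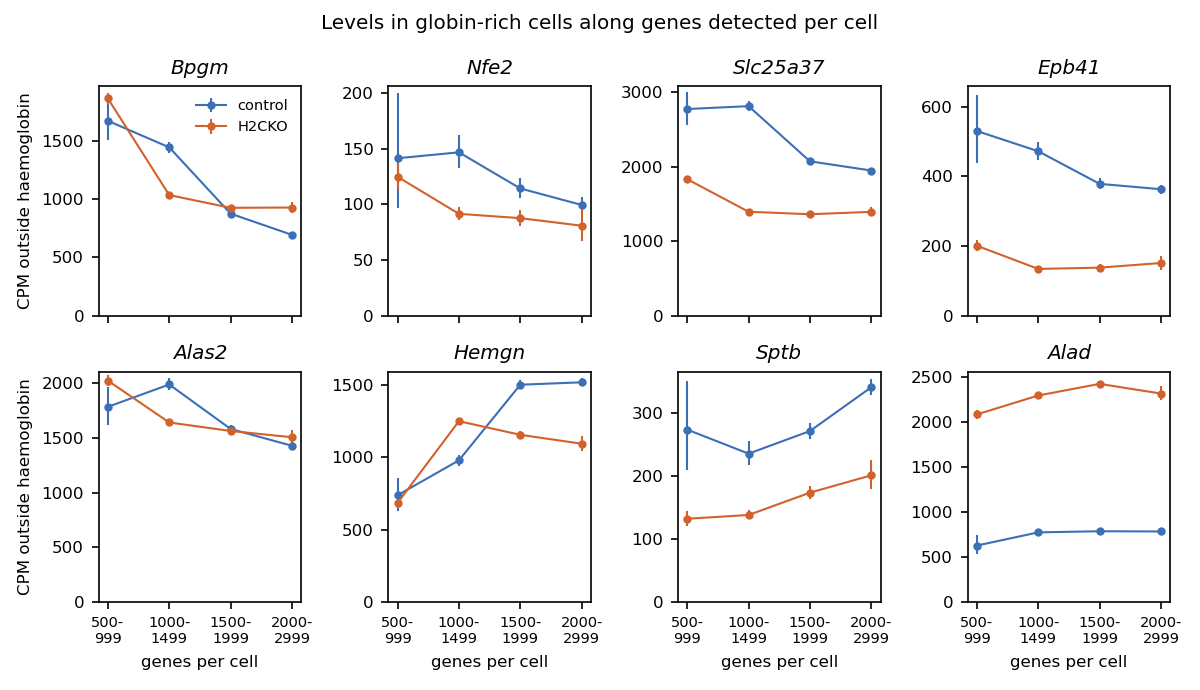
Level of 8 members, in CPM outside haemoglobin with exact 95% Poisson intervals, in globin-rich cells grouped by genes detected per cell, with 112, 648, 991 and 925 control cells (blue) and 1450, 2405, 1081 and 153 H2CKO cells (orange) from left to right. Bpgm declines and Hemgn is lowest in the cells with the fewest genes in both libraries, while Alad keeps its distance between the libraries in every bin.

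Genes of cell division also moved along this axis. In the cells with few genes, 8 of 12 division genes in the control and 12 of 12 in H2CKO were at least 2-fold lower, beside 5.54% and 8.30% of all genes tested, with medians of −1.35 and −1.60. The alternatives at equal depth were run for the members and not for this list. Cdk1, the mitotic kinase, was at 63.9 and 271 CPM in the fewest-gene and most-gene cells of the control and at 64.9 and 352 CPM in H2CKO. Hist1h1b, a linker histone made in S phase, was at 123 and 579 CPM and at 142 and 609 CPM. In each library, 1 of 12 further membrane and skeleton genes and 1 of 11 late red cell genes were at least 2-fold higher in the cells with few genes, and none was at least 2-fold lower. Of all genes tested, 0.916% in the control and 0.613% in H2CKO were at least 2-fold higher there. The higher genes of these lists were Tmcc2 (1.57 and 1.69) and Xpo7, a nuclear exporter linked to nuclear condensation in red cells (1.47 and 1.30). The cells with few genes also had more of their UMIs in haemoglobin (medians of 69.9% against 63.8% in the control and 73.0% against 66.4% in H2CKO) and summed cardiomyocyte markers of 4002 against 2915 CPM and 4824 against 2698 CPM. The part of either in the member levels was not tested.

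Cell by cell, Bpgm was the member with the largest variance for its mean. After each cell was thinned to 2000 UMIs outside haemoglobin (leaving out 54 control and 329 H2CKO cells that were shallower), the variance of Bpgm was 1.93 and 2.06 times its mean in control and H2CKO. That exceeded 92.2% of 51 and 95.2% of 42 genes with a mean close to it, whose median ratios were 1.11 and 1.12. Slc25a37 had 1.79 and 1.38 and Hemgn 1.55 and 1.43, whereas Blvrb, with the highest mean, had 1.23 and 1.20. Over 2675 control and 4761 H2CKO cells, the thinned level of Bpgm had a Pearson r of −0.35 with the summed division genes in both libraries, and Hemgn had 0.28 and 0.30. Bpgm and Slc25a37 had an r of 0.26 and 0.17. These correlations are descriptions over cells of 1 library each at 1 depth.

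All 28 members were at least 2-fold higher in globin-rich cells than in the pooled cells with less than 10% haemoglobin UMIs, and none was lower, in both libraries. Of 6497 genes tested in the control 9.40% were higher and 37.5% lower, and of 5724 in H2CKO 9.61% and 40.6%. The median log2 ratio of the members was 4.74 and 4.63, against −0.62 and −0.74 for all genes tested. Alas2 had the highest ratio, at 1559 against 4.97 CPM in the control (7.29) and 1671 against 4.48 CPM in H2CKO (7.47). The lowest was that of Epb41 in the control, at 386 against 56.5 CPM (2.67), and of Tfrc in H2CKO, at 101 against 28.1 CPM (1.68). On CPM over all UMIs, haemoglobin included, Tfrc (0.15) and Epb41 (0.63) fell short of 2-fold in H2CKO. On that scale the medians of the members were 3.21 in the control and 2.98 in H2CKO. Of 6138 genes tested in the control, 146 were then at least 2-fold higher and 5221 lower, and of 5403 in H2CKO 127 and 4713. On CPM outside haemoglobin, the membrane proteins had medians of 6.06 and 5.98, the haem enzymes and carriers of 4.54 and 4.61, and the membrane skeleton genes, Epb41 among them, of 4.36 and 3.23.

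Free RNA from broken red cells can put red cell transcripts into any droplet, so the member UMIs of each class were compared with the number expected if they came with that class's haemoglobin UMIs at the ratio seen in globin-rich cells. By this measure the members fell into groups. For Alas2, Slc4a1, Rhag, Rhd, Ermap, Icam4, Epb42 and Hemgn, observed UMIs were 0.786 to 2.40 times those expected in the 4 classes of heart cells, and in none of these or the white blood cell-like cells did the lower bound of the ratio exceed 2 in both libraries. Alas2 in cardiomyocyte-like cells, at 4.87 and 5.09 CPM, was at 1.12 and 1.09 times the expected number. Whether these UMIs came from free RNA, from doublets with red cells or from the cells themselves was not tested.

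For Tfrc, Alad, Uros, Urod, Cpox, Ppox, Slc25a38 and Epb41 the lower bound exceeded 2 in both libraries in all 4 of the cardiomyocyte-, endothelial-, epicardial- and mesenchymal-like classes, with observed UMIs 2.49 to 119 times those expected. The threshold of 2 was set after the values were seen. Tfrc in cardiomyocyte-like cells was the furthest from expectation, at 74.5 times in the control and 119 times in H2CKO. Of the haem synthesis enzymes measured, Alad, Uros, Urod, Cpox and Ppox were in this group, whereas the erythroid first enzyme Alas2 and the last enzyme Fech, which all cells share, were not. Fech missed it in endothelial-like cells, at 3.00 and 2.11 times expectation with a lower bound of 1.89 in H2CKO.

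The other 12 members exceeded the expectation in some classes. Tal1, a factor of the blood and endothelial lineages, was at 41.0 and 27.0 CPM in endothelial-like cells, 9.66 and 6.65 times the number expected. Gata1 was at 34.3 and 28.9 CPM in white blood cell-like cells (21.0 and 15.7 times) and Nfe2 at 32.9 and 15.8 CPM there (19.9 and 7.85 times). Klf1 was at 14.9 and 17.4 CPM in mesenchymal-like cells, 16.1 and 10.7 times the number expected. A Klf1 UMI was found in 14.7% (13.0% to 16.5%) and 12.2% (10.3% to 14.4%) of those cells, at median depths of 12387 and 9411 UMIs. In cardiomyocyte-like cells the share was 3.01% and 2.55% at 24045 and 17130 UMIs, where Klf1 was at 1.59 and 1.10 times expectation.

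**Figure D5:**
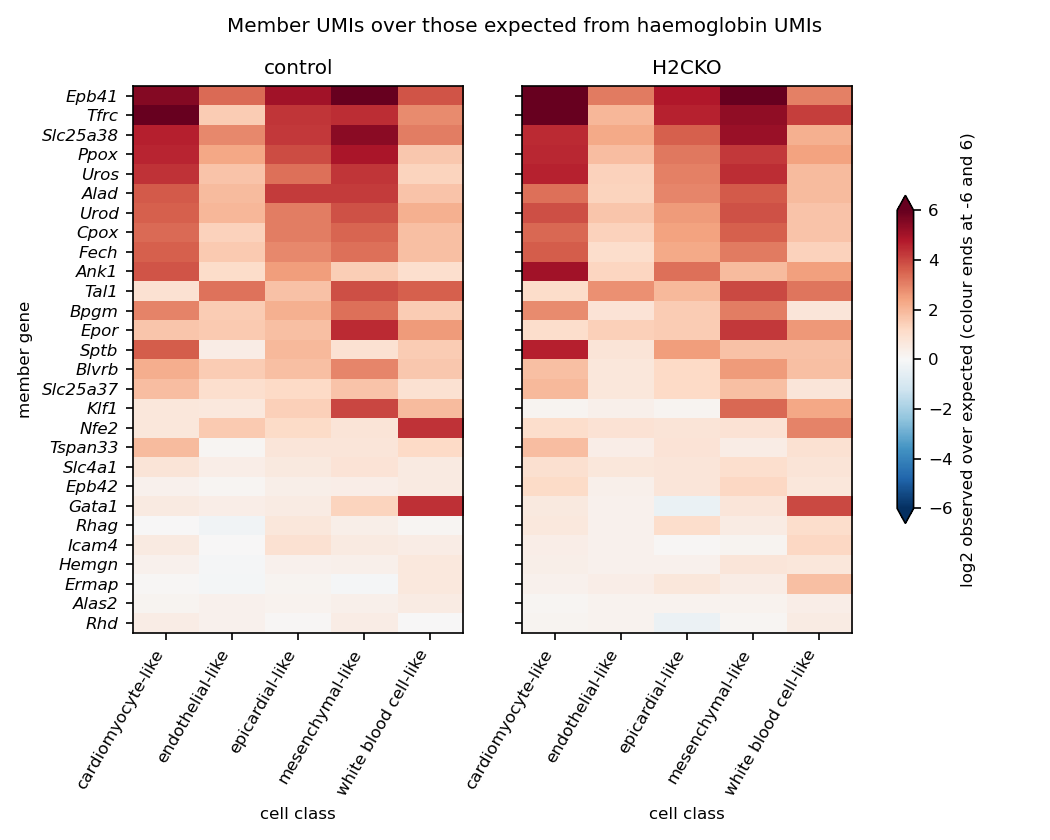
Observed member UMIs over those expected from the haemoglobin UMIs of each class, as log2 (colour scale from −6 to 6), for 28 members in 5 named classes of each library. Rows are ordered by their mean over the cardiomyocyte-, endothelial-, epicardial- and mesenchymal-like classes, so that Epb41 and Tfrc stand at the top, Alas2 and Rhd near 0 at the bottom, and Gata1 and Nfe2 are highest in white blood cell-like cells.

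The remaining genes of the pathways were read from lists made by function. Of 11 further haem and iron-sulphur genes that passed the filter, none was at least 2-fold higher in H2CKO and 1 was lower, beside 0.465% and 8.67% of all genes tested, which are the backgrounds for the lists that follow too. Their most abundant gene was Tmem14c, a porphyrinogen transporter, at 1775 and 1948 CPM. Alas1, the housekeeping counterpart of Alas2, was at 5.78 and 4.48 CPM. Of 9 iron genes, 1 was lower, the iron regulatory protein Ireb2 at 28.5 and 10.6 CPM (−1.10). The ferritin heavy chain Fth1 led that list at 34907 and 37583 CPM, and the light chain Ftl1 was at 9806 and 15998 CPM (0.71), while Slc40a1 was at 38.1 and 24.8 CPM.

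Of 12 further membrane and skeleton genes, 1 was at least 2-fold lower and none was higher. None of 12 further erythroid transcription factors was past 2-fold in either direction, with Zfpm1, a cofactor of Gata1, the most abundant at 288 and 144 CPM (−0.98). None of 3 haem export and breakdown genes (led by Abcg2 at 243 and 152 CPM) or of 11 late red cell genes (led by the peroxiredoxin Prdx2 at 9871 and 11268 CPM) was past 2-fold. Of 12 division genes, Mki67 was lower at 1620 and 443 CPM (−1.86). The 7 progenitor genes did not reach the filter, Runx1 leading at 8.87 and 4.34 CPM and Kit having 4 and 2 UMIs in all. Medians of these lists lay between −0.46 and 0.20, and that of all genes was −0.21.

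The 250 bases before the start of each gene were searched for AGATAA, a core letter run bound by GATA factors, and CCACCC, a run bound by Klf1, on both strands. RefSeq (GRCm38.p6) held promoters for 23 of the 29 genes. AGATAA was in 6 of them (26.1%), against 11.4% of all 27025 genes with a promoter of the same length, and CCACCC was in 8 (34.8%) against 30.6%. The 6 were Alas2, Epb42, Epor, Icam4, Rhd and Tal1, and the 8 were Alas2, Blvrb, Epor, Ermap, Gata1, Rhag, Sptb and Tfrc. Alas2 and Epor held both motifs, but the Alas2 window overlaps a 5′ untranslated region in another annotation (GENCODE), so its matches may not lie before the gene's start. The Epor promoter is printed to show how the motifs lie, with both in capitals on either strand, and a match describes letters only and not a bound site.
Epor, chr9:21963577-21963826, minus strand: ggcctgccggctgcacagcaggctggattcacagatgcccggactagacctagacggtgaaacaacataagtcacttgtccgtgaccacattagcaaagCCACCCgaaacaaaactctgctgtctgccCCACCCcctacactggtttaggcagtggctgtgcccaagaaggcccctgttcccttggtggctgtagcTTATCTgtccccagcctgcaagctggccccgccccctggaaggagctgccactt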

How the data were processed

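Per the labels, 10x Genomics 3′ libraries of E11.5 hearts, held on ice for about 3 hours and dissociated with TrypLE, were read with 28 and 91 bases. The authors deposited raw UMI counts per gene and barcode, and per the file headers also 2 embedding coordinates per barcode, a score without a unit, used only to look for an embedded subset. Cell Ranger 5.0.1, Seurat 4 and GRCm38.p6 are named in the submitters' processing notes, and whether barcodes were called alike in both libraries is not given in the sources used here. The control held 14114 barcodes with 195825720 UMIs and H2CKO 13885 with 201477256, each barcode with at least 500 UMIs. All 28 members matched by Ensembl ID.

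Cells entered with a minimum of 500 genes and no more than 10% of UMIs from mitochondrial genes. UMIs were summed over cells per library and class and divided by the UMIs outside haemoglobin. The log2 ratio of CPM + 5 was taken for genes with at least 20 CPM and 20 UMIs in the higher group, and a gene was past 2-fold at 1 or more in size. Intervals are exact 95% Poisson, conditional or Clopper-Pearson intervals (scipy 1.17.1). Cells under 50% haemoglobin were clustered without members or haemoglobin (scanpy 1.11.5, leidenalg 0.10.2, resolution 1) and classes named from fixed marker lists; 1 shallow cluster (1127 and 352 cells) stayed unnamed. An erythroid-like class (335 and 485 cells, under 50% haemoglobin) was kept apart. Doublets were not removed, because Scrublet's automatic threshold marked 1048 control cells and 0 in H2CKO; its top 5% of scores served as an alternative. Gene spans and UTRs came from GENCODE vM21. The calculation between libraries was run on simulated counts: all 63 genes changed 3-fold, 0 of 68 changed 1.5-fold and 0 of 4000 unchanged genes were past 2-fold. The counts were Poisson draws around the control's levels, without variation between libraries, a gene-span trend or a shift of the median gene. The simulation checks the calculation at this depth only and gives no rate of false calls for these libraries.

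All 29 members are named by rule; from the other lists the most abundant gene and those past 2-fold are named, except some that are not reported here, and Alas1, Ftl1, Slc40a1 and Kit were added after their values were seen. The members and lists were chosen with earlier results of these data known. Alternatives added after seeing the data were the gene-span trend, cells with 1500 to fewer than 2000 genes, leaving out the unnamed cluster, and Alad by class less the UMIs expected from haemoglobin.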

Additional observations from a re-analysis of the deposited data

Results flagged for a closer look

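Along genes detected per cell, 3 members had opposite signs in the libraries with a counting interval excluding no difference in each, and the difference between the libraries was not tested. The log2 ratio of the cells with the fewest genes over those with the most was 0.20 in the control and −0.24 in H2CKO for Ppox. It was 0.24 and −0.22 for Rhag, and 0.25 and −0.085 for Rhd. With cells down to 30% haemoglobin included, the H2CKO values turned to 0.13, 0.12 and 0.32 for Ppox, Rhag and Rhd, the sign of the control, as did Rhd (0.13) when centred on the median gene, and on CPM over all UMIs the control values turned to −0.07, −0.04 and −0.04, the sign of H2CKO. The control values of Ppox and Rhd also turned negative at a haemoglobin share of at least 70% (−0.06 and −0.26) and with genes counted at 2000 UMIs (−0.09 and −0.20). In H2CKO the median of all genes tested was −0.22, and Ppox and Rhag lay close to it, with 48.0% and 49.5% of those genes at or below them. All 6 values first given lay within 2-fold, and the limits in genes per cell differ between the libraries.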

How the results depend on the processing

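With 1 library per genotype no result has a replicate check. No paired analysis was possible because each group has 1 library. Between libraries, Tfrc (−2.16 to −1.81) and Alad (1.39 to 1.76) stayed past 2-fold under all 17 alternatives and Epb41 (−1.57 to −0.86) under 16; with the gene-span trend taken out, 1 member was at least 2-fold lower in place of 2, and there were 3 at a haemoglobin share of at least 70%, on CPM over all UMIs, with a pseudocount of 1 CPM and after thinning to 2000 UMIs. Against other cells, every member tested stayed at least 2-fold higher except Tfrc and Epb41 in H2CKO on CPM over all UMIs, which left 26 of 28. Along genes per cell, the count of members at least 2-fold higher fell from 1 to 0 in both libraries on CPM over all UMIs, on splitting cells at the median number of genes and on genes counted at 2000 UMIs, and in H2CKO also with at least 1000 genes. Members at least 2-fold lower rose from 0 to 1 in the control (Hemgn, −1.47) and to 2 in H2CKO (Hemgn, −1.20, and Icam4, −1.18) at a haemoglobin share of at least 70%, and to 1 in H2CKO on CPM over all UMIs. Bpgm ranged from 0.76 to 1.51 in the control and from 0.43 to 1.37 in H2CKO. Hemgn ranged from −1.47 to −0.30 in the control and from −1.20 to −0.03 in H2CKO. The cause was not tested. The embedded subset (5408 and 6232 cells) held 0 globin-rich cells, so that alternative was not run. Depth limits shares of single cells: a Gata1 UMI was found in 48.6% of control and 30.1% of H2CKO globin-rich cells as counted, and in 19.9% and 15.5% of cells thinned to 2000 UMIs.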
